A study of Mus musculus with 8 samples.

Results

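Transcripts of 10 scavenger and phagocytic receptors were followed in the lungs of mice that had received carbon nanotubes, or their solvent alone, through the trachea. The receptors were Msr1, Marco, Scara5, Olr1, Cd36, Cd68, Mrc1, Stab1, Cd163 and Clec7a, 10 of the 18191 genes with 1 symbol on the array. They were read by 17 of 34939 named probe sets, a probe set being a group of short oligonucleotides against 1 transcript, and the brightest probe set on average gave a gene its main value. All 10 passed the filter on dim signals that left 13854 genes, which asked that a main probe set reach the array median on 2 or more arrays.

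The animals were male ICR mice, an outbred strain, of 5 to 6 weeks. Every mouse was anesthetized with pentobarbital, had its neck opened and received 50 µl of 0.1% PF68 (Pluronic F-68), the solvent, which is a surfactant. In the SWCNT groups this fluid carried 0.5 mg of single-walled carbon nanotubes, and in the PF68 groups it carried none. Total RNA from right lung lobe 1 was taken on day 1 (acute) or on day 7 (sub-chronic) and hybridized to Affymetrix arrays; each of the 4 groups has 2 arrays. The arrays are called biological replicates and no animal is named; the spread behind each p-value is that between arrays and may be technical.

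Scavenger receptors are membrane proteins with which macrophages and some endothelial cells bind negatively charged or oxidized ligands, dead cells and bare mineral or carbon particles. In the alveolus, where few antibodies coat an inhaled particle, such direct recognition is the usual first step of clearance, and the bound cargo is passed to lysosomes. Since the RNA came from whole tissue, more cells of a type and more RNA per cell cannot be told apart.

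The labelled tissue bore its markers: Sftpc of alveolar type 2 cells read 7.70 to 8.08 and Scgb1a1 of club cells 8.10 to 8.31 on a scale whose array median was -0.63. Pearson correlations over all probe sets were 0.914 to 0.940 within the 4 groups and 0.891 to 0.931 for 24 pairs between groups. A measure of RNA quality moved with the groups: the 3′ signal of beta-actin exceeded its 5′ signal by 2.02 with PF68 and 1.34 with SWCNT on day 1, and by 3.27 and 2.97 on day 7 (log2 means, n = 2). The hybridization spikes were higher in SWCNT by 0.22 on day 1 and differed by -0.53 on day 7. If arrays are scaled to the spikes, the treatment effect of every gene moves by -0.22 on day 1 and 0.53 on day 7, and the median gene goes from -0.02 to -0.24 and from 0.02 to 0.55. Their part in the results below was not tested.

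The stretches just upstream of the annotated starts are shown for the receptors that rose on day 7 and have an entry in the RefSeq promoter table (GRCm38.p6). Each is 250 bases long, runs 5′ to 3′ on the gene's strand and ends at the base before the start. Olr1 lies at chr6:129507166-129507415 on the minus strand, Clec7a at chr6:129472780-129473029 on the minus strand and Cd68 at chr11:69666171-69666420 on the minus strand. Clec7a has 2 starts in that table, and only the window of the first listed was searched. Capitals mark matches, on either strand, to GAGGAA, the core that the macrophage factor PU.1 binds, to TGANTCA, the AP-1 site, and to TTGCNNAA, a C/EBP-type sequence.
Olr1: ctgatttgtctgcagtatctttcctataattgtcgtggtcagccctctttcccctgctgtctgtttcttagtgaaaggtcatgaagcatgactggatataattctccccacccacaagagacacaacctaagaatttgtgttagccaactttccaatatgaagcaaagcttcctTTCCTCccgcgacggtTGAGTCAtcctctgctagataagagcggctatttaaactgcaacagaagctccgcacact
Clec7a: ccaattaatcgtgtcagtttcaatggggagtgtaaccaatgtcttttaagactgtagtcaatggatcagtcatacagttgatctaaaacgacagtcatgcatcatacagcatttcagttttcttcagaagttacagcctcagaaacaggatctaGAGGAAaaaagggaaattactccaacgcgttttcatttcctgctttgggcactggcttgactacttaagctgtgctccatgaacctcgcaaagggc
Cd68: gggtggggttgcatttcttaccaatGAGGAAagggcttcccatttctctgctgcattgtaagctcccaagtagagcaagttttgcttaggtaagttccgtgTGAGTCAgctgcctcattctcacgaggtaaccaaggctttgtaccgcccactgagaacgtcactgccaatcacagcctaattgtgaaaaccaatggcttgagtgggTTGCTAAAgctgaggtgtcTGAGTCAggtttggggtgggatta

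GAGGAA or its reverse complement began 76 bases before the start of Olr1, 96 before that of Clec7a and 225 before that of Cd68. It was present in 6 of the 8 receptor windows available, those of Marco, Mrc1 and Stab1 included, and in 23.1% of the windows of 27025 genes. TGANTCA occurred in Olr1, 60 bases before the start, and at 2 places in Cd68, 149 and 24 bases before it. None of the other 6 receptor windows held it, against 6.87% of all windows. TTGCNNAA matched in Cd68 only, 43 bases before the start (9.55% of all windows). The M-box TCATGTG (3.22%), the E-box TCACGTG (3.15%) and TATAAA (13%) had no match in the 8 windows. No match overlapped another, and a match is a description of letters, not of a bound site. Msr1 and Scara5 have no window here.

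On day 7, 4 of the 10 receptors were higher in SWCNT than in PF68 lungs and none was lower: Msr1 by 4.68-fold, Cd68 by 3.06-fold, Olr1 by 2.53-fold and Clec7a by 2.13-fold. The Msr1 fold is against a PF68 mean of -0.81, under the array median, and depends on the probe set. Marco, Cd36, Mrc1, Stab1, Cd163 and Scara5 did not pass the test. Calls were made at an adjusted p of 0.05 over all genes (limma, Benjamini-Hochberg); 2.18% of all genes were called on that day, 1.4% higher and 0.78% lower. The arrays of the groups did not overlap in 8 receptors, all higher in SWCNT; of all genes, 28.2% lay apart upward and 25% downward. The median difference was 0.78 over the receptors and 0.02 over all genes, and the receptors were chosen with earlier results of these data known. Scaled to the spikes, 8 receptors were called higher on day 7, where all genes gave 5813 higher and 80 lower calls in place of 194 and 108. On day 1, no receptor was called with limma, where 2.17% of all genes were, 0.931% higher and 1.23% lower. The arrays lay apart upward in 5 receptors (24.6% of all genes) and downward in 3 (28.6%). Spike scaling gave 2 lower receptors on day 1, with 101 higher and 636 lower genes in place of 129 and 171. At an unadjusted p of 0.05 (limma), 4 receptors passed on day 1 and 7 on day 7, as did 2572 and 3205 of all 13854 genes.

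**Figure D1:**
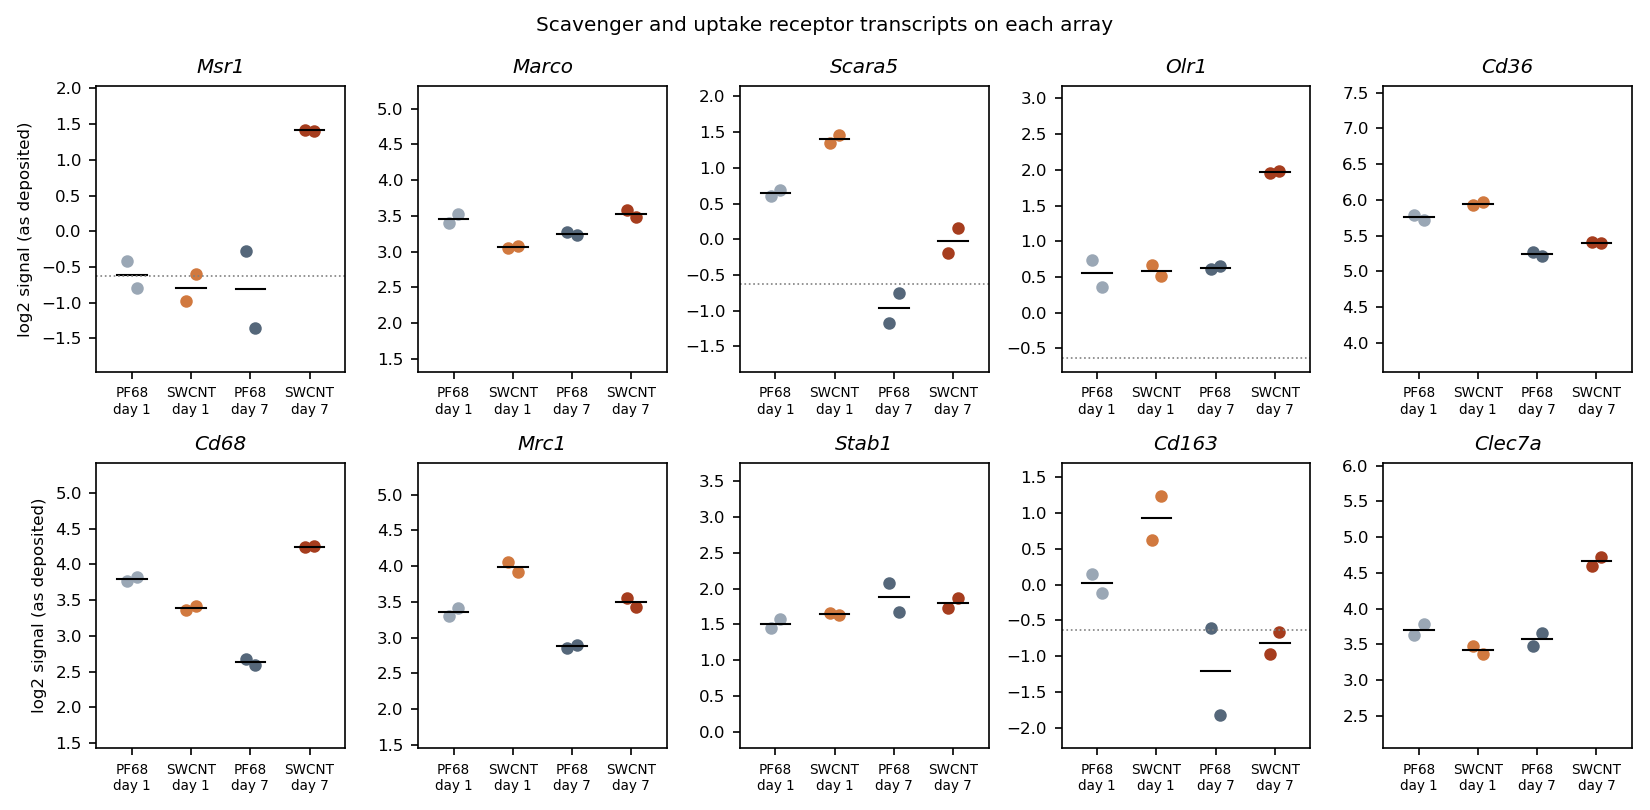
Log2 signal as deposited of the main probe set of each receptor (vertical axis, a span of 4 log2 units in every panel) in the 4 groups (horizontal axis), 1 point per array and a bar at the mean of 2; the dotted line, where in range, is the array median of -0.63. The 2 SWCNT day 7 arrays stand above the other 6 in the panels of Msr1, Olr1, Cd68 and Clec7a.

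Among the class A receptors, trimers with a collagen-like stalk, Msr1 encodes scavenger receptor A, which takes up modified lipoproteins and silica. Its log2 signals were -0.42 and -0.79 with PF68 against -0.98 and -0.60 with SWCNT on day 1, and -0.28 and -1.35 with PF68 against 1.42 and 1.41 with SWCNT on day 7. The first 6 arrays scattered around the array median and overlapped, and both SWCNT day 7 arrays lay above them. On day 7 Msr1 rose by 2.23 ± 0.36 (± is the SE of the log2 difference, with 2 arrays in each group; adjusted p = 0.0484, limma). With signals under the array median set to it, the difference was 1.87. A filter at 6 of 8 arrays selects another Msr1 probe set, which differed by 0.09 (limma, adjusted p = 0.831), and Msr1 was called in 3 of the 11 alternatives other than leaving out an array. On day 1 it was -0.18 ± 0.36, with a 95% interval from -1.08 to 0.71.

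The other probe sets of Msr1 did not all show the same size. Those of lower signal differed by 1.46 ± 0.36, 1.26 ± 0.58 and 0.09 ± 0.24 on day 7. None of these was called when each probe set was tested as a feature of its own, and the main probe set then had an adjusted p of 0.0658. All 4 probe sets of Msr1 lay between -1.99 and 1.42 on every array, near the array median.

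Marco, a receptor for uncoated dust and bacteria that marks alveolar macrophages, was well above the median on every array. Its signals were 3.40 and 3.52 with PF68 against 3.05 and 3.08 with SWCNT on day 1, and 3.27 and 3.23 with PF68 against 3.58 and 3.48 with SWCNT on day 7. SWCNT arrays were thus below both PF68 arrays on day 1 and above both on day 7. Neither difference was called: -0.40 ± 0.11 on day 1 (adjusted p = 0.142) and 0.28 ± 0.11 on day 7 (adjusted p = 0.198). The difference between these effects was 0.68 ± 0.15 (adjusted p = 0.0838). The other Marco probe set, which can bind related transcripts, differed by 0.07 ± 0.31 and 1.11 ± 0.31.

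Scara5 encodes a class A receptor for ferritin that mesenchymal and epithelial cells express more than macrophages do. It read 0.61 and 0.69 with PF68 against 1.34 and 1.46 with SWCNT on day 1, and -1.17 and -0.76 with PF68 against -0.19 and 0.15 with SWCNT on day 7. No groups overlapped, with both day 7 groups under both day 1 groups and SWCNT above PF68 on each day. The SWCNT minus PF68 difference was 0.75 ± 0.19 on day 1 (adjusted p = 0.124) and 0.95 ± 0.19 on day 7 (adjusted p = 0.0652), neither of them called. Its second probe set, at or above the median on 2 arrays, went against this on day 1, at -1.67 ± 0.63.

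Among the receptors of oxidized lipid, Olr1 encodes LOX-1, a lectin-like receptor of endothelium and macrophages. It read 0.74 and 0.37 with PF68 against 0.67 and 0.51 with SWCNT on day 1, and 0.61 and 0.65 with PF68 against 1.96 and 1.98 with SWCNT on day 7. The first 3 groups overlapped, and SWCNT day 7 stood apart. On day 7 Olr1 rose by 1.34 ± 0.15 (2.53-fold; limma, adjusted p = 0.0273), and its day 1 difference was 0.04 ± 0.15.

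Cd36, the class B receptor and fatty acid transporter that capillary endothelium, fat and muscle express besides macrophages, did not pass the test on either day. The main probe set read 5.79 and 5.71 with PF68 against 5.92 and 5.97 with SWCNT on day 1, and 5.28 and 5.22 with PF68 against 5.41 and 5.39 with SWCNT on day 7. SWCNT arrays were above PF68 arrays on both days by a small step, 0.19 on day 1 (95% interval -0.06 to 0.44) and 0.15 on day 7 (-0.10 to 0.40), neither called. The other 2 probe sets had differences of -0.17 to 0.10 over both days.

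Cd68 encodes a heavily glycosylated protein of late endosomes and lysosomes in macrophages. Its signals were 3.77 and 3.83 with PF68 against 3.37 and 3.41 with SWCNT on day 1, and 2.68 and 2.59 with PF68 against 4.24 and 4.26 with SWCNT on day 7. No groups overlapped: SWCNT day 7 was highest, then PF68 day 1, SWCNT day 1 and PF68 day 7. On day 7 Cd68 rose by 1.61 ± 0.10 over PF68 (limma, adjusted p = 0.00927), the smallest p of the 10 receptors. The day 1 difference pointed the other way and was not called, at -0.41 ± 0.10 (adjusted p = 0.123).

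The day 7 step of Cd68 joins a change in each treatment over time. Its level in PF68 lungs fell by 1.16 from day 1 to day 7 (-1.16 ± 0.10, adjusted p = 0.00753), and that in SWCNT lungs rose by 0.86 ± 0.10 (adjusted p = 0.00845). In Olr1, Clec7a and Msr1, by contrast, the PF68 groups of the 2 days differed by 0.08 ± 0.15, -0.14 ± 0.13 and -0.21 ± 0.36, none called.

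Mrc1 encodes the mannose receptor, which takes up glycoproteins and collagen peptides. It read 3.30 and 3.41 with PF68 against 4.05 and 3.91 with SWCNT on day 1, and 2.85 and 2.90 with PF68 against 3.55 and 3.43 with SWCNT on day 7. SWCNT arrays were above PF68 arrays on both days, by 0.63 ± 0.12 on day 1 and 0.62 ± 0.12 on day 7. Neither passed, at adjusted p = 0.0634 and adjusted p = 0.0582, and the effects of the 2 days differed by -0.01 (95% interval -0.41 to 0.39).

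Stab1 encodes stabilin-1, a clearance receptor of sinusoidal and lymphatic endothelium and of tissue macrophages. It read 1.45 and 1.58 with PF68 against 1.65 and 1.63 with SWCNT on day 1, and 2.09 and 1.67 with PF68 against 1.73 and 1.87 with SWCNT on day 7. The day 7 groups overlapped, and the differences were 0.13 ± 0.16 on day 1 and -0.08 ± 0.16 on day 7.

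Cd163, the receptor of haemoglobin bound to haptoglobin, read 0.15 and -0.12 with PF68 against 0.62 and 1.24 with SWCNT on day 1, and -0.60 and -1.82 with PF68 against -0.97 and -0.66 with SWCNT on day 7. It was above the array median on the 4 day 1 arrays and on 1 array of day 7. The day 1 difference of 0.91 ± 0.43 was not called (adjusted p = 0.329), nor was that of day 7, at 0.40 ± 0.43, which is -0.01 when signals under the array median are set to it.

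Clec7a encodes dectin-1, a C-type lectin for fungal beta-glucan that signals through its own cytoplasmic tail. Its signals were 3.63 and 3.78 with PF68 against 3.47 and 3.37 with SWCNT on day 1, and 3.47 and 3.67 with PF68 against 4.60 and 4.72 with SWCNT on day 7. The PF68 groups of the 2 days overlapped, and SWCNT day 7 lay above all other arrays. Clec7a rose by 1.09 ± 0.13 on day 7 (2.13-fold; limma, adjusted p = 0.0301) and differed by -0.29 ± 0.13 on day 1.

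Clec7a and Olr1 are next to each other on mouse chromosome 6, with 0 protein-coding genes between them in the RefSeq annotation. Of the 12 nearest protein-coding neighbours, 6 on each side, 6 were tested here: Clec1b, Clec1a, Gabarapl1, Klre1, Klrd1 and Klrk1. Their day 7 differences ran from -0.60 in Klrd1 to -0.02 in Gabarapl1, and 0 were called by limma at the adjusted threshold.

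**Figure D2:**
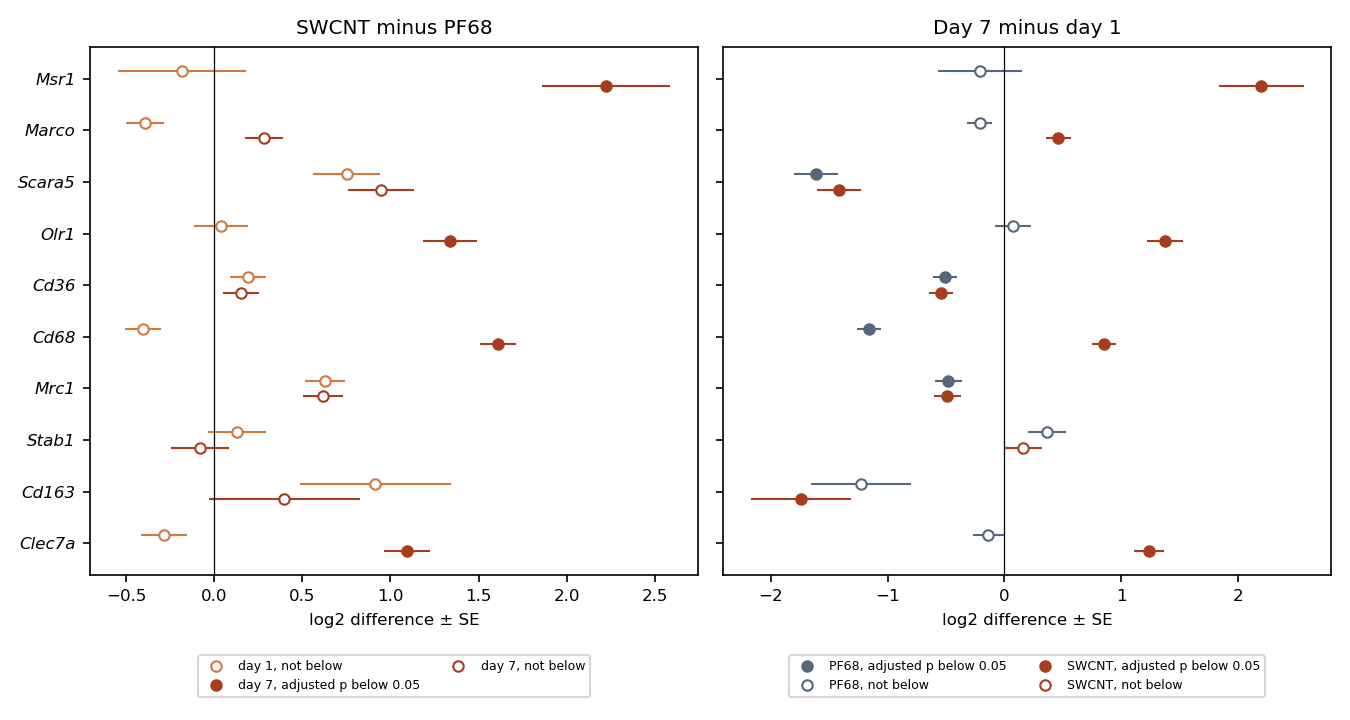
Log2 differences ± SE (horizontal axis) of the 10 receptors (rows): SWCNT minus PF68 on each day on the left, day 7 minus day 1 within each treatment on the right; filled points passed an adjusted p of 0.05. Filled points on the left are those of Msr1, Olr1, Cd68 and Clec7a on day 7, and on the right Cd68 is called on both sides of 0.

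The effect of SWCNT differed between the days in 3 receptors, all higher on day 7, where 2.34% of all genes were called, 1.41% higher and 0.924% lower. Cd68 had a difference of effects of 2.02 ± 0.14 (limma, adjusted p = 0.00824), Clec7a of 1.38 ± 0.18 (adjusted p = 0.0336) and Olr1 of 1.30 ± 0.22 (adjusted p = 0.0489). That of Msr1 was 2.41 ± 0.51 and did not pass (adjusted p = 0.0767). In the other 6 it ran from -0.52 in Cd163 to 0.68 in Marco, none called. The 2 days have separate PF68 controls.

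The day 7 calls rested on all 8 arrays. Leaving out any 1 array left 0 of the 4 calls, except that Cd68 kept its call without the first PF68 day 7 array. The adjusted p ran from 0.0484 to 0.12 for Cd68, 0.0658 to 0.149 for Olr1, 0.0751 to 0.154 for Clec7a and 0.0563 to 0.187 for Msr1. The differences themselves moved little in Cd68 (1.57 to 1.66), Olr1 (1.32 to 1.36) and Clec7a (1.0 to 1.19), and from 1.69 to 2.76 in Msr1. The difference of effects stayed called in Cd68 without either PF68 day 7 array and in no other case. With no filter on dim signals, Cd68 alone was called on day 7 (adjusted p = 0.0347), and the others had 0.0606 for Olr1, 0.0701 for Clec7a and 0.0927 for Msr1. The 4 day 7 arrays fitted alone gave 0 called genes with limma, receptors included. In that fit 6 receptors, and 2490 of all genes, had an unadjusted p under 0.05.

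Between the days, 16.3% of all genes differed in SWCNT lungs (9.59% higher, 6.7% lower) and 17.7% in PF68 lungs (8.86% each way). Of the receptors, 9 differed in SWCNT lungs: Msr1 (2.20 ± 0.36), Olr1 (1.38 ± 0.15), Clec7a (1.24 ± 0.13), Cd68 and Marco (0.46 ± 0.11) rose, and Cd163 (-1.74 ± 0.43), Scara5 (-1.42 ± 0.19), Cd36 (-0.54 ± 0.10) and Mrc1 (-0.49 ± 0.12) fell from day 1 to day 7. In PF68 lungs none rose and 4 fell: Scara5 (-1.61 ± 0.19), Cd68, Cd36 (-0.51 ± 0.10) and Mrc1 (-0.48 ± 0.12). By their main probe sets, Scara5, Cd36 and Mrc1 thus fell in both treatments. Arrays of the days lay apart upward in 6 receptors with SWCNT (36.6% of all genes) and 1 with PF68 (32.5%), and downward in 4 (26.2%) and 6 (28.6%). Leaving out 1 array left 0 to 7 of the 9 calls in SWCNT and 0 to 3 of the calls in PF68 lungs, and the arrays of 1 treatment fitted alone gave none (9 and 4 at an unadjusted p of 0.05).

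Other probe sets went against 4 of these changes over time. A second Cd36 probe set was higher on the later day in both treatments. It read 2.34 and 2.39 on day 1 and 3.11 and 3.30 on day 7 with PF68, and 2.37 and 2.24 on day 1 and 3.0 and 3.07 on day 7 with SWCNT. The second Marco probe set read 1.28 and 1.25 in SWCNT day 1 and 0.57 and -0.02 in SWCNT day 7. The second Scara5 probe set read -2.39 and -1.89 in SWCNT day 1 and -1.21 and -0.09 in SWCNT day 7. Averaging the probe sets of a gene turned the sign of the Cd36 difference in PF68 lungs and of the Marco and Scara5 differences in SWCNT lungs, and took the Cd36 difference in SWCNT lungs to -0.02 (limma, adjusted p = 0.935).

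**Figure D3:**
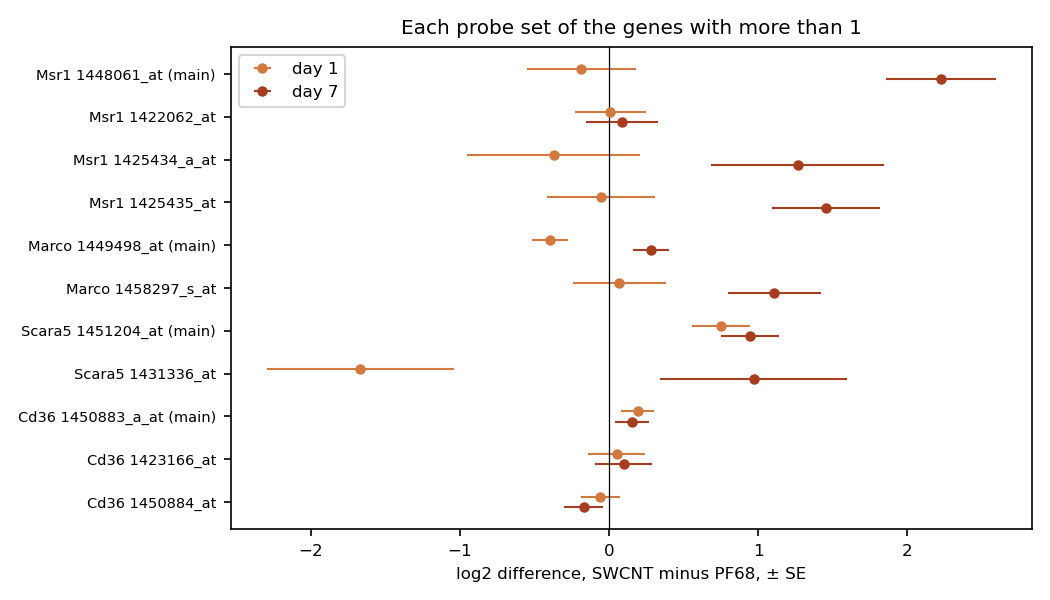
SWCNT minus PF68 log2 difference ± SE (horizontal axis) of each probe set (rows) of the 4 receptors that have more than 1, on day 1 and day 7; "main" marks the probe set with the highest mean. On day 7 the Msr1 probe sets run from 0.09 to 2.23, and on day 1 the Scara5 probe sets lie on opposite sides of 0.

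Of 108 other genes in 8 lists of the uptake pathway, 9 were higher and 0 lower on day 7, and 2 were higher and 1 lower on day 1. The medians were 0.23 and -0.03. For comparison, the limma shares over the full set of 13854 for day 7 were 1.4% up and 0.78% down. Those for day 1 were 0.931% up and 1.23% down. Whether a list exceeded these shares was not tested. The C-type lectin list, which holds the receptors related to dectin-1 and the adaptors they signal through, had 5 of 13 higher on day 7, 0 lower and 8 not called, with a median of 0.83. Clec4n, which encodes dectin-2, rose by 1.24 ± 0.19, Malt1, a protease of the CARD9 complex, by 1.09 ± 0.16, and the adaptor chain gene Fcer1g by 0.90 ± 0.12. Clec4a2, an inhibitory lectin, and Syk, the kinase downstream of dectin-1, were called as well, at 0.84 ± 0.11 and 0.72 ± 0.11. On day 1 none of the 13 was called with limma, with a median of 0.02.

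Other scavenger receptors, 12 tested, had 0 calls on either day, with medians of 0.0 and 0.21. Scara3 (0.74 ± 0.17, adjusted p = 0.0844) and Scarb1 (0.49 ± 0.11, adjusted p = 0.0842) had the largest day 7 differences among them. Of 11 Fc, complement and integrin receptors, Fcgr2b, the inhibitory Fc receptor, was higher on day 1 (0.62 ± 0.10, adjusted p = 0.0487) and none was called on day 7 (median 0.34). The day 7 differences of these 11 ran from -0.46 in Vsig4 to 1.63 ± 0.29 in C3ar1 (limma, adjusted p = 0.0534). Receptors of dying cells had 0 of 15 called on either day (medians -0.22 and 0.28). On day 7 they ran from -0.94 in Itgb3 to 2.41 ± 0.52 in Trem2 (limma, adjusted p = 0.0728). The engulfment machinery had 1 of 15 lower on day 1, Coro1a, an actin-binding protein of leukocytes (-1.08 ± 0.12), and 0 on day 7 (median 0.06).

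Lipid handling had 2 of 15 higher on day 7, Apoe (1.10 ± 0.11), the apolipoprotein macrophages secrete, and Plin2 (0.83 ± 0.12), a lipid droplet coat. On day 1 the fatty acid carrier Fabp4 was higher by 1.64 ± 0.12, beside the fat markers given below. None of 8 genes of haem breakdown, the route after Cd163, was called on either day (medians 0.01 and -0.10). Of 19 macrophage factors and growth factor receptors, Csf2rb, the shared beta chain of the GM-CSF receptor (1.43 ± 0.10), and Nfe2l2 (0.60 ± 0.10), the oxidative stress factor Nrf2, were higher on day 7, with a median of 0.30, and none on day 1.

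**Figure D4:**
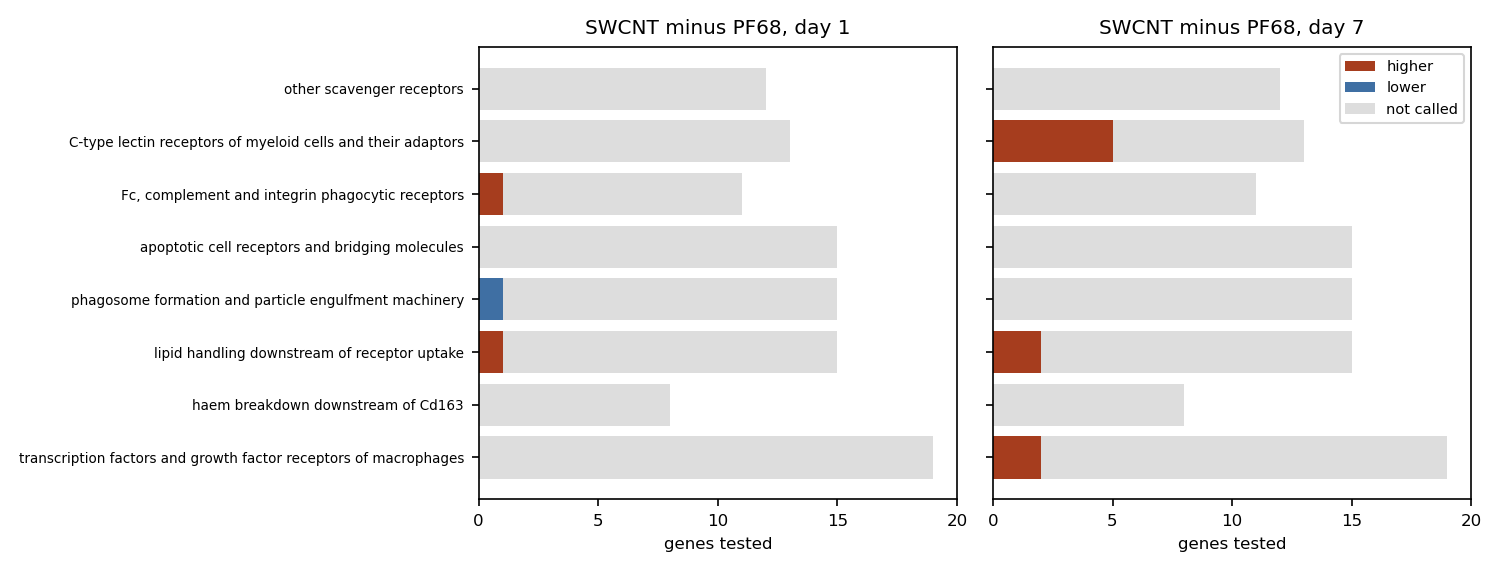
Number of tested genes (horizontal axis) of each uptake pathway list (rows) that were higher, lower or not called in SWCNT against PF68 on day 1 and day 7. The C-type lectin list has 5 of 13 genes higher on day 7.

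Markers of the cells that could carry these transcripts were summed on the linear scale, the receptors themselves left out. Such a sum is led by its brightest markers. The 8 general macrophage markers, such as Adgre1, Csf1r and Lyz2, had 0 calls on either day with limma and a median of 0.14 on day 7. Their sum was 253 to 269 in PF68 day 7 and 266 to 268 in SWCNT day 7. Over the 8 arrays Lyz2 read 7.61 to 7.88 in log2, Csf1r 4.12 to 4.72 and Adgre1 1.06 to 1.92. The sum therefore mostly followed Lyz2 and is not an even measure of these markers. Their day 7 differences ran from -0.32 in Mertk to 0.89 in Aif1 (adjusted p = 0.0928). Cd14 had 0.63 (adjusted p = 0.0873), Fcgr1 0.28, Adgre1 0.24, Lyz2 0.04, Csf1r -0.02 and Ptprc -0.17, beside the rises of Cd68, Msr1, Olr1 and Clec7a. Of 11 alveolar macrophage markers, Ctsk (3.39) and Atp6v0d2 (1.11) were higher on day 7 and 0 lower, with a median of 0.48. Their sum was 267 to 275 in PF68 and 320 to 325 in SWCNT. In the difference of effects 4 of them were called higher and 0 lower (median 0.67). The 10 interstitial macrophage markers had 1 higher, Ccl8, and 1 lower, F13a1. Their median was 0.08, with sums of 267 to 281 in PF68 and 249 in SWCNT.

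Neutrophil markers moved the other way on day 7: 5 of 10 were lower and 1 higher, and the sum was 319 to 320 in PF68 and 153 to 154 in SWCNT. Monocyte markers had 1 of 8 lower, a median of -0.40 and sums of 183 in PF68 and 199 to 205 in SWCNT. Ccr2 (-1.10), Treml4 (-1.06), F13a1 (-0.83), Ms4a4c (-0.62), Ace (-0.18) and Plac8 (-0.15) were below 0. Only Chil3 (0.30), also an alveolar macrophage marker here, and Vcan (0.11) were above 0, so the higher monocyte sum rests on them. Capillary endothelium, a source of Cd36 transcripts, had 1 of 11 lower and sums of 269 to 274 and 218 to 223. The part of these markers in the receptor results was not tested.

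On day 1, some leukocyte markers and markers of tissue from outside the alveoli moved with SWCNT. The 9 dendritic cell markers had 1 lower, a median of -0.53 and a sum of 45.7 to 48.1 in PF68 and 25.3 to 27.4 in SWCNT, and 3 of them were called higher in the difference of effects (median 0.90). Of the 8 monocyte markers 2 were lower on day 1, with a median of -0.37 and overlapping sums, and the general macrophage markers had a median of -0.26, with Aif1 at -1.08 (adjusted p = 0.0801). The 10 interstitial macrophage markers had 2 lower, Lyve1 and Ccl8, a median of -0.04 and sums of 294 to 300 in PF68 and 242 to 249 in SWCNT. These markers went both ways, from -1.16 in Ccl8 to 0.26 in Folr2, so their sum is not an even measure of them. Alveolar macrophage markers had 1 of 11 lower, Krt79, with overlapping sums. Neutrophil markers had 1 of 10 higher and 1 lower, a median of 0.05 and sums of 335 to 340 and 347 to 350. The leukocyte values stand beside the uncalled day 1 differences of Cd68, Marco and Clec7a. They also stand beside the called differences of effects of Cd68, Clec7a and Olr1, and their part in any of these was not tested. The 11 skeletal muscle markers had 8 higher and a sum of 11.1 to 12.4 in PF68 and 119 to 122 in SWCNT. The 9 adipocyte markers had 4 higher and a sum of 26.9 to 28.7 against 110 to 112. The 9 adventitial fibroblast markers had 2 higher, Dcn and Col1a1, and a sum of 51.0 to 51.8 against 66.4 to 67.1. The muscle, fat and fibroblast values stand beside the uncalled day 1 differences of Scara5, Cd36, Mrc1 and Cd163, and their part in them was not tested.

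**Figure D5:**
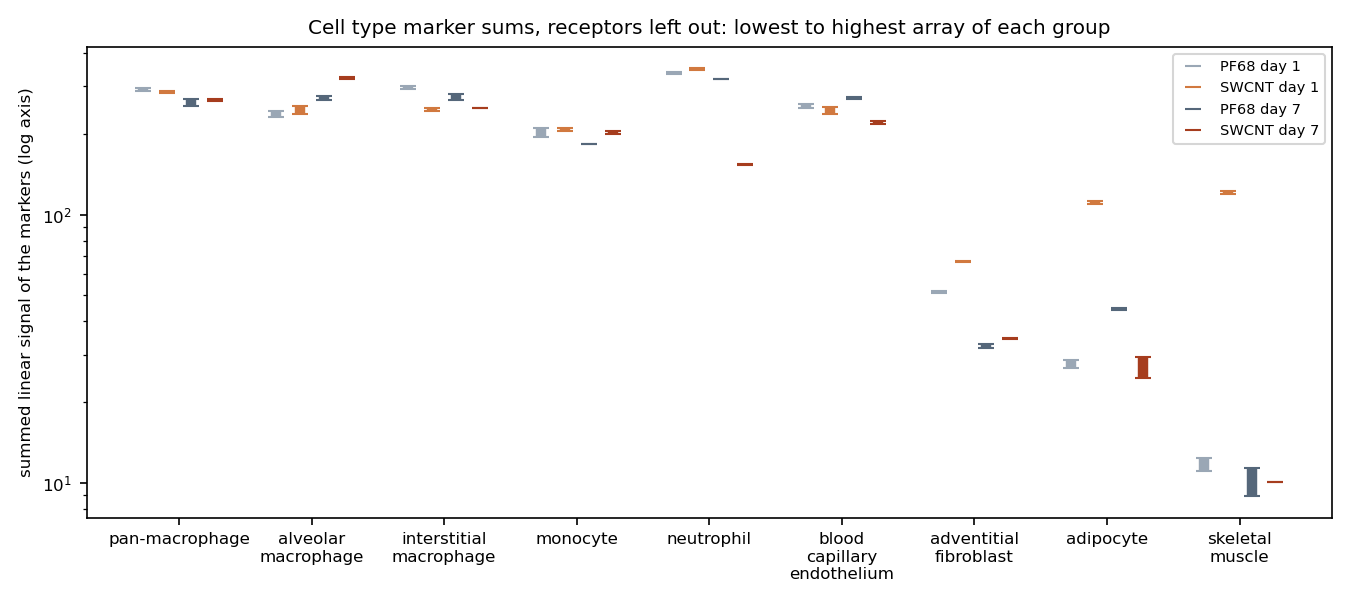
Summed linear signal of cell type markers without the receptors (vertical axis, log scale) for 9 lists, each bar running from the lower to the higher of the 2 arrays of a group. On day 7 the alveolar macrophage sum is higher with SWCNT and that of general macrophage markers, led by Lyz2, overlaps. The neutrophil sum is lowest in SWCNT day 7, and muscle and adipocyte sums are highest in SWCNT day 1.

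Over the 8 arrays, the levels of the called receptors were alike to different degrees, as a description of arrays that share groups. Pearson's r was 0.942 between Olr1 and Clec7a, 0.934 between Msr1 and Olr1 and 0.892 between Msr1 and Clec7a. Cd68 followed them less closely, with r of 0.663 with Olr1, 0.730 with Clec7a and 0.732 with Msr1. Scara5 and Cd36 had 0.953, the highest of all 45 pairs.

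Genes were also ranked by r with each called receptor over the 8 arrays, names of predicted genes and clones left out. They were picked on the same arrays that gave the receptor calls, so their own calls are no separate support. The 3 genes most like Cd68 were Hspa14 (0.989), Mpp6 (0.984) and the fibronectin gene Fn1 (0.980), all called higher on day 7. For Olr1 they were the chemokine gene Ccl9 (0.987), Tmtc4 (0.981) and Hip1 (0.975), and Ccl9 was called. For Clec7a they were Ypel5 (0.990), Mcm7 (0.980) and the cathepsin D gene Ctsd (0.980), of which Ctsd was called. For Msr1 they were Nme7 (0.981), Sirpa (0.978), a receptor that restrains phagocytosis, and Cdc42ep3 (0.974), none called.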

How the data were processed

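The authors' deposited table holds 1 value per probe set and array, read as log2 signal. RMA is the tool listed per the submitters' processing notes (version not given). The log base and offset are unknown; another base would rescale every difference and leave tests unchanged. All columns held the same sorted values. Of 45101 probe sets, 64 were controls and 8 had a missing value; 34939 of the rest had 1 symbol, 931 several, and 9159 are unnamed here. Of the named, 34735 had a gene ID in the RefSeq table (GRCm38.p6), used for names.

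A probe set was kept if it reached the array median on 2 or more arrays. Group means were estimated over the 8 arrays by limma 3.58.1 (R 4.3.3; lmFit, then eBayes, with 4 degrees of freedom from residuals and 1.81 from the prior), with Benjamini-Hochberg adjustment over 13854 genes in each of 5 contrasts; ± is the moderated standard error. The procedure was tested on simulated data. Members and lists were chosen with earlier results of these data known. Named were all 10 receptors, up to 3 called genes of each pathway list by size, and 3 genes for each receptor called on day 1 or day 7. Those 3 had the highest correlation to it, names of predicted genes and clones left out. Clec4a2, Syk, Scara3, Scarb1, Vsig4, C3ar1, Itgb3, Trem2 and single markers were named after their values were seen. Figures were drawn with matplotlib 3.10.9. Alternatives changed the filter, probe set, scale, variance model, arrays and threshold.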

Additional observations from a re-analysis of the deposited data

Results flagged for a closer look

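In 3 receptors the SWCNT effect differed between the days by limma's test of the difference itself (day 7 minus day 1, n = 2 arrays in each of 4 groups). Cd68 had 2.02 (adjusted p = 0.00824), with both SWCNT arrays below both PF68 arrays on day 1 and above them on day 7. Clec7a had 1.38 (adjusted p = 0.0336), with the same order of arrays. Olr1 had 1.30 (adjusted p = 0.0489), with overlapping groups on day 1 and SWCNT higher on day 7.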

How the results depend on the processing

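Of the receptors, 0 were called on day 1, 4 on day 7, 3 in the difference of effects, 4 over time in PF68 and 9 over time in SWCNT lungs. In that order of contrasts, counts beyond 1.5 times these were: without a filter 0, 1, 1, 2 and 5; with spike scaling 2, 8, 8, 8 and 8; with an intensity trend 3 on day 1 and 5 in the difference; with each probe set a feature 1 in the difference; with averaged probe sets 2 in PF68 and 3 in SWCNT; with the filter at 6 arrays 1 on day 1; with array weights 1 on day 1; at a threshold of 0.10, 1 on day 1 and 5 in the difference. Spike scaling moves every gene by 0.75 in the difference, by -0.60 over time in PF68 and by 0.15 over time in SWCNT. All-gene counts under that scaling are not given here for those contrasts. With only the contrast's arrays, limma called 0 on day 7, in PF68 and in SWCNT (6, 4 and 9 at an unadjusted p of 0.05). With all 8 arrays, 3205, 4737 and 4548 of all genes passed that unadjusted p in these 3 contrasts. Leaving out 1 array gave 0 to 0, 0 to 1, 0 to 1, 0 to 3 and 0 to 7. With the replicate number as a replicate block, 1 receptor was called on day 7 and 1 in the difference; same-numbered arrays did not deviate together (correlations -0.01 to 0.01), so they share only a number.

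Over all genes, 300 were called on day 1 and 302 on day 7. These became 123 and 24 without a filter, 494 and 810 with the filter at 6 arrays, 193 and 97 with averaged probe sets, 737 and 5893 with spike scaling, 1214 and 1530 with a trend, 102 and 15 with the replicate block, 57 and 0 with the contrast's arrays (2490 at an unadjusted p of 0.05 on day 7), 689 and 1255 at 0.10, 143 on day 7 with each probe set a feature and 102 on day 7 with array weights. Leaving out 1 array gave 30 to 189 and 0 to 18.

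Signs turned as follows, with the cause not tested. The filter at 6 arrays, which changes the Msr1 probe set, gave Msr1 0.008 on day 1 and 0.78 over time in PF68, and on day 7 ended its call at 0.0873 (limma, adjusted p = 0.831) while 5 receptors were called. Averaged probe sets gave Scara5 -0.46 on day 1 and 0.0325 over time in SWCNT, Cd36 0.0142 over time in PF68 and Marco -0.26 over time in SWCNT. Spike scaling gave -0.18 for Olr1, -0.0264 for Cd36 and -0.088 for Stab1 on day 1, 0.45 for Stab1 on day 7, 0.71, 0.73, 0.54 and 0.23 for Cd36, Mrc1, Stab1 and Cd163 in the difference, and -0.52 for Olr1 and -0.23 for Stab1 over time in PF68. Leaving out 1 array gave ranges across 0 for Mrc1 (-0.0802 to 0.0582), Cd36 (-0.08 to 0.0023), Scara5 (-0.0121 to 0.40) and Cd163 (-1.13 to 0.0923) in the difference, Olr1 (-0.15 to 0.22) and Msr1 (-0.37 to 0.0046) on day 1, Stab1 (-0.29 to 0.13) and Cd163 (-0.21 to 1.01) on day 7, and Olr1 (-0.11 to 0.27) and Msr1 (-0.74 to 0.33) over time in PF68. Of the 20 called receptor differences, 153 of 216 values under the other alternatives and 45 of 160 without 1 array kept direction and call.

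With 2 arrays a group, and Msr1, Scara5 and Cd163 near the array median, small differences could not be resolved.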
